A study of Mus musculus with 19 samples.

Results

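The interferon-stimulated genes followed here are 39 mouse genes known as interferon targets, found on the arrays by matching the deposited probe names to the gene symbols without regard to case. A probe carried the name of 35 of them, and 29 had a probe that was detected on 3 or more of the 19 arrays, at a detection p under 0.05, and were tested among 14648 genes, each through its brightest such probe. The RNA came from the gastrocnemius, a calf muscle, of 2-month-old CD1 mice and was read on Illumina bead arrays with 1 colour. A locked nucleic acid oligonucleotide, a short nucleic acid with chemically stiffened sugars and here a phosphorothioate backbone, was injected through the tail vein at 12 mg/kg in 200 µl, and the left femoral artery was dissected 2 days later. Muscle was taken 3 days after the operation. The groups were ischemic muscle after a scrambled oligonucleotide (4 arrays) or after anti-miR-210 (4 arrays), the matching non-ischemic muscle after scramble (4 arrays) or anti-miR-210 (4 arrays), and untreated muscle (3 arrays). No group carries a transgene, the oligonucleotides were given to the whole animal, and it is not labelled whether non-ischemic muscle was the opposite limb of the same mice or whether replicates were separate animals, so the p-values rest on a spread between arrays that could be technical.

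Interferons are secreted signals that warn cells of infection or damage. Type I interferons bind the receptor pair Ifnar1 and Ifnar2 and activate the kinases Jak1 and Tyk2, after which a complex that holds Stat2 and Irf9 binds the interferon-stimulated response element, while interferon-gamma acts through the gamma-activated site. In muscle, both infiltrating leukocytes and the muscle's own cells can respond to interferons, and several of the genes below are also expressed at high levels by macrophages without any added interferon.

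The oligonucleotides are shown because they define the groups. In the mature microRNA (RefSeq, GRCm38.p6, chr7:141221407-141221428, minus strand) capitals mark the seed, bases 2 to 8. The anti-miR-210 oligonucleotide is complementary to bases 2 to 16 of miR-210, seed included, a run of 15 bases, while the longest complementary run of the scrambled oligonucleotide is 4 bases.
mmu-miR-210-3p: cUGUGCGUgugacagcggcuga
anti-miR-210 oligonucleotide: gctgtcacacgcaca
scrambled oligonucleotide: cgtctagccacctag
No probe is named for miR-210, so its inhibition could not be checked on these arrays.

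Levels are normalized log2 intensities and changes are differences of group means on the same scale, with a standard error (SE) from a limma fit over all arrays. A gene is called at a limma adjusted p under 0.05 over all genes tested. The number of arrays limits the precision. Mean deposited intensity was 153.9 ± 28.6 (SD, n = 4) on scramble ischemic arrays and 229.5 ± 37.7 (n = 4) on those after anti-miR-210 (p = 0.0286 in an exact permutation test, two-sided, which with 70 splits can give no smaller value), and 204.4 to 253.1 on average in the other groups. Skeletal muscle markers were bright in every group, with a mean log2 intensity over 10 genes of 12.88 to 13.35 on non-ischemic oligonucleotide arrays and 11.78 to 12.63 on ischemic ones. Untreated replicates 1 to 3 carried transcripts of hepatocyte genes (mean over 10 genes 7.88 to 11.39), as did scramble non-ischemic replicate 1 (7.29), against 4.35 to 4.74 on the other 15 arrays.

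Ischemia was accompanied by higher levels of interferon-stimulated genes after either oligonucleotide. After scramble, 15 of the 29 tested genes rose, Ifi35 fell and 13 were not called, where 51.6% of all genes tested were called (27% higher and 24.6% lower). After anti-miR-210, 21 rose, 0 fell and 8 were not called, where 50.9% of all genes tested were called (26.5% higher and 24.4% lower). The median change was 0.64 after scramble and 1.15 after anti-miR-210, beside 0.01 over all genes in both comparisons, and it was the same with genes undetected in a group set to their bound. All 15 genes that rose after scramble also rose after anti-miR-210. These comparisons share no arrays, but they share an estimate of the spread, and the same overlap over all genes was not counted. Another 6 (Bst2, Gbp2, Irf7, Mx2, Stat2 and Usp18) were called only after anti-miR-210, but the difference between both responses was itself called for 0 of 29 genes (5 under median scaling without background correction). With mean array intensity as a covariate, 11 of the 29 rose and 0 fell after scramble, where 53.6% of all genes called were higher. Without untreated replicates 2 and 3 and scramble non-ischemic replicate 1, the median change after scramble was 0.56, beside 0.01 over all genes. Ischemic and non-ischemic arrays did not overlap, with the ischemic ones higher, for 11 genes after scramble and 14 after anti-miR-210, where 25% and 23.3% of all genes tested stood apart in that direction.

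**Figure D1:**
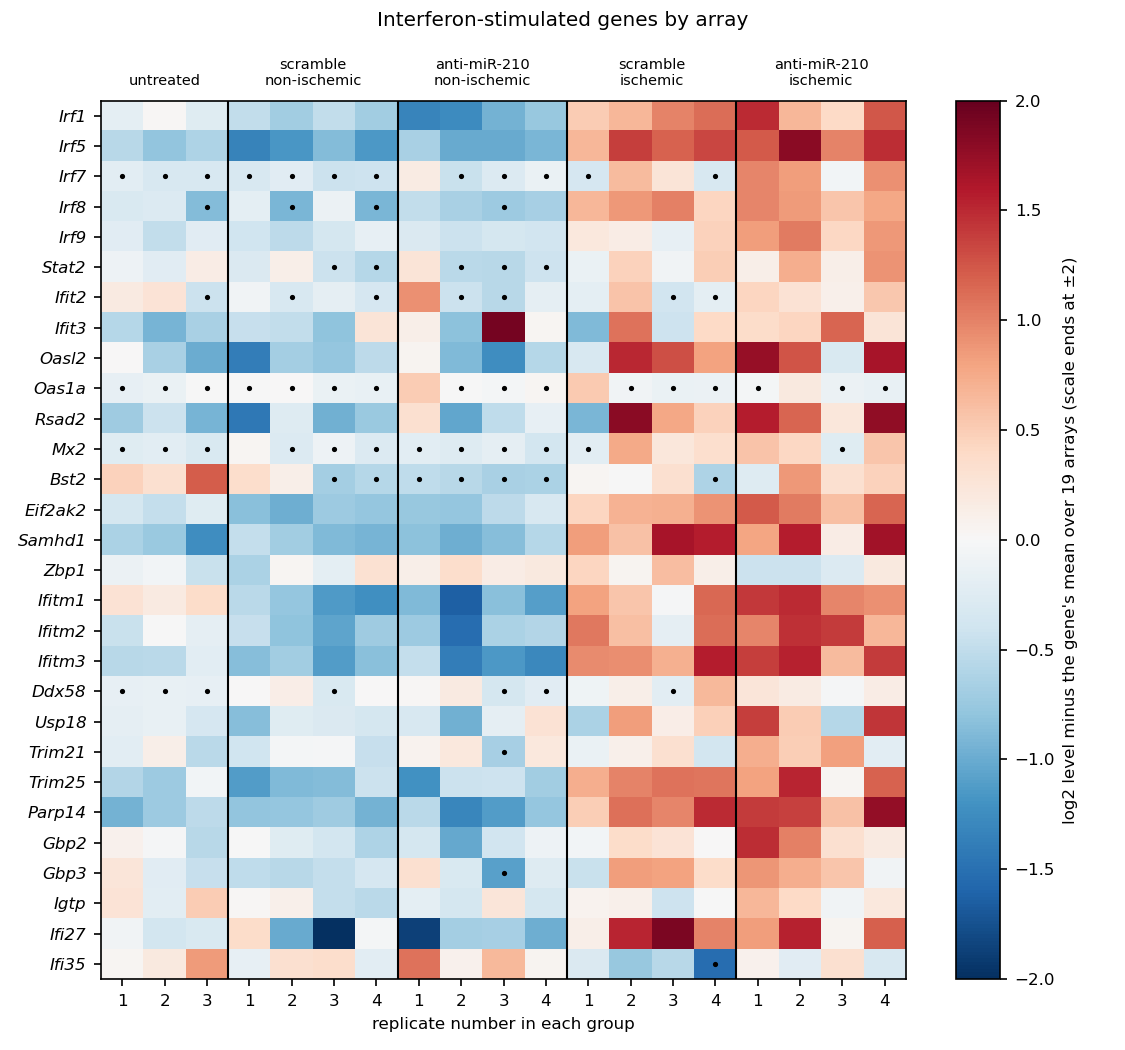
Normalized log2 level of each of the 29 tested interferon-stimulated genes (rows) on each of the 19 arrays (columns, by group and replicate number), as the difference from the gene's mean over all arrays. Colours run from blue (lower) to red (higher) and end at 2 log2 units either way; a dot marks an array on which the probe was not detected. The 8 ischemic arrays on the right are red for most rows, Ifi35 in the bottom row is blue on scramble ischemic arrays, and anti-miR-210 ischemic replicate 3 is paler than the other 3 of its group.

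Macrophage markers rose with the same arrays. Of 15 macrophage genes tested, 11 were higher after scramble and all 15 after anti-miR-210, and their mean log2 level per array ran from 5.11 to 5.6 on scramble non-ischemic and from 7.41 to 8.2 on scramble ischemic arrays, and from 5.21 to 5.5 and from 7.72 to 8.77 after anti-miR-210. Among neutrophil genes 6 of 7 rose after scramble and 5 of 7 after anti-miR-210, among T cell and natural killer genes 3 and 4 of 7, and among endothelial genes 5 and 5 of 7. Of all genes tested, 27% and 26.5% rose in these comparisons. Of 4 plasmacytoid dendritic cell markers tested, 3 and 4 rose, a list that includes Bst2 and Irf8. The part of these cell types in the changes below was not tested, and in whole muscle a change in the number of cells of a type and a change in RNA per cell cannot be told apart. The single B cell marker tested was called only after anti-miR-210.

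Among the transcription factors and signal transducers, 4 of 6 rose after scramble and all 6 after anti-miR-210, beside 27% and 26.5% of all genes tested. Irf5, which links Toll-like receptors to inflammatory cytokine genes and is best known from macrophages, read 5.17, 5.34, 5.63 and 5.36 on scramble non-ischemic replicates 1 to 4 and 7.16, 7.88, 7.68 and 7.84 on scramble ischemic replicates. After anti-miR-210 Irf5 read 5.85, 5.49, 5.49 and 5.59 without and 7.73, 8.31, 7.49 and 7.97 with ischemia. Every ischemic array lay well above every non-ischemic one, and Irf5 had the highest change of the 29 genes after scramble. It rose 4.81-fold after scramble (log2 change 2.26 ± 0.18 SE, limma adjusted p = 6.85e-09) and 4.82-fold after anti-miR-210 (2.27 ± 0.18, adjusted p = 6.71e-09).

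Irf1, a factor induced early by interferon-gamma that activates antigen processing genes, read 7.97, 7.78, 7.98 and 7.78 without and 8.98, 9.14, 9.46 and 9.58 with ischemia in the scramble groups. In the anti-miR-210 groups Irf1 read 7.15, 7.21, 7.53 and 7.71 without and 9.96, 9.13, 8.86 and 9.71 with ischemia. The groups were again fully separate. The rise was 2.66-fold after scramble (1.41 ± 0.21, adjusted p = 1.14e-05) and 4.04-fold after anti-miR-210 (2.01 ± 0.21, adjusted p = 1.71e-07). Irf8, a factor of the monocyte and dendritic lineages, lay between 4.33 and 5.13 on the 8 non-ischemic oligonucleotide arrays and between 5.68 and 6.25 on the 8 ischemic ones, and rose by 1.28 ± 0.19 (adjusted p = 1.65e-05) and 1.43 ± 0.19 (adjusted p = 4.86e-06).

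The components of the type I interferon complex changed less after scramble. Irf9, its DNA-binding subunit, read 5.65, 5.52, 5.69 and 5.89 on scramble non-ischemic and 6.26, 6.2, 5.89 and 6.5 on scramble ischemic arrays. After anti-miR-210 Irf9 read 5.76, 5.61, 5.7 and 5.67 without and 6.88, 7.09, 6.46 and 6.92 with ischemia. Scramble ischemic replicate 3 reached only the level of the highest non-ischemic array, whereas the anti-miR-210 groups stood apart. The change was 0.52 ± 0.15 (adjusted p = 0.00589) after scramble and 1.15 ± 0.15 (adjusted p = 2.67e-06) after anti-miR-210. The call after scramble was lost with array brightness as a covariate, where the change was 0.47 (adjusted p = 0.104), and under median scaling without background correction, where it was 0.17 (adjusted p = 0.158). A dimmer second Irf9 probe, with a mean level of 4.55, moved by 0.15 ± 0.15 after scramble (adjusted p = 0.471) and by 0.53 ± 0.15 after anti-miR-210 (adjusted p = 0.00731).

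Stat2, the partner of Irf9 in that complex, was dim: it read 4.59, 4.99, 4.44 and 4.31 on scramble non-ischemic and 4.75, 5.34, 4.81 and 5.37 on scramble ischemic arrays. In the anti-miR-210 groups Stat2 read 5.14, 4.34, 4.32 and 4.46 without and 4.99, 5.6, 4.99 and 5.78 with ischemia. The groups overlapped in both comparisons. Stat2 changed by 0.48 ± 0.23 after scramble (adjusted p = 0.0844) and rose by 0.78 ± 0.23 after anti-miR-210 (adjusted p = 0.00771, or 0.0664 under median scaling without background correction).

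Irf7, which amplifies type I interferon production, was not detected on any scramble non-ischemic array (4.32, 4.42, 4.21 and 4.23) and read 4.31, 5.28, 4.9 and 4.33 on scramble ischemic arrays. In the anti-miR-210 groups Irf7 read 4.8, 4.2, 4.37 and 4.51 without and 5.62, 5.48, 4.59 and 5.56 with ischemia. Its detection on scramble ischemic arrays was limited to replicates 2 and 3, and anti-miR-210 ischemic replicate 3 lay within the non-ischemic range. Irf7 rose by 0.84 ± 0.23 after anti-miR-210 (adjusted p = 0.00414, or 0.1 under median scaling without background correction), and its change after scramble had an adjusted p of 0.143.

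**Figure D2:**
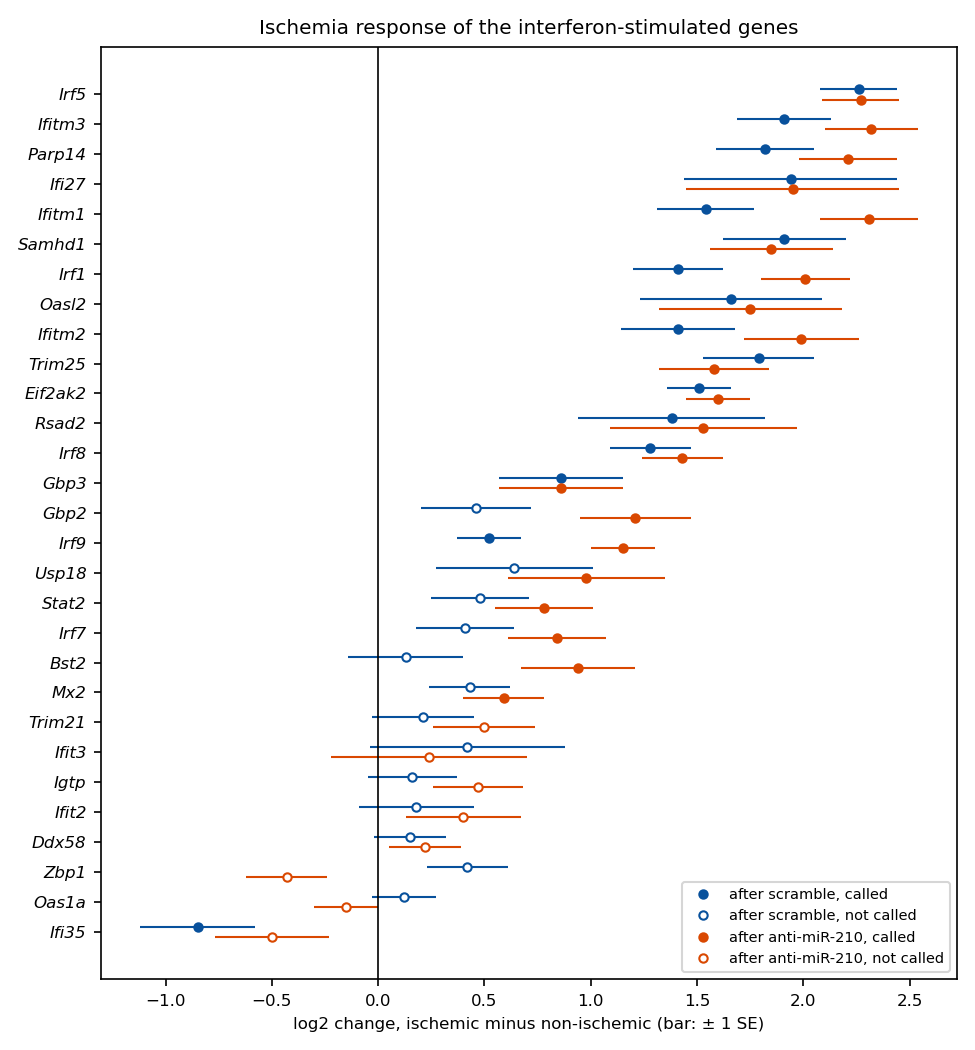
Change of each tested interferon-stimulated gene between ischemic and non-ischemic muscle (x axis, log2 units) after scramble (blue) and after anti-miR-210 (orange), with bars of 1 SE from the limma fit, n = 4 arrays per group; filled points were called at an adjusted p under 0.05. The changes ran from -0.85 (Ifi35) to 2.26 (Irf5) after scramble and from -0.5 (Ifi35) to 2.32 (Ifitm3) after anti-miR-210.

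Antiviral effectors formed the largest class, with 7 of 13 tested genes higher after scramble and 9 of 13 after anti-miR-210. The shares over all genes tested were 27% and 26.5%. The interferon-induced transmembrane proteins, which block the entry of enveloped viruses, were the brightest. Ifitm3 read 10.49, 10.65, 10.23 and 10.51 on scramble non-ischemic and 12.29, 12.27, 12.06 and 12.91 on scramble ischemic arrays. It read 10.87, 9.96, 10.2 and 10.06 without and 12.73, 12.88, 11.98 and 12.75 with ischemia after anti-miR-210. No ischemic array reached down to a non-ischemic one. Ifitm3 rose 3.76-fold after scramble (1.91 ± 0.22, adjusted p = 8.79e-07) and 4.98-fold after anti-miR-210 (2.32 ± 0.22, adjusted p = 8.98e-08).

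Ifitm2, its close paralog on the same chromosome, read 9.49, 9.15, 8.9 and 9.23 on scramble non-ischemic and 11.01, 10.55, 9.77 and 11.07 on scramble ischemic arrays. With anti-miR-210 Ifitm2 read 9.22, 8.43, 9.32 and 9.36 without and 10.93, 11.41, 11.34 and 10.62 with ischemia. Scramble ischemic replicate 3 was the lowest of its group, yet above each non-ischemic array. The rise was 1.41 ± 0.27 after scramble (adjusted p = 0.000185, or 0.115 under median scaling without background correction) and 1.99 ± 0.27 after anti-miR-210 (adjusted p = 4.14e-06).

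Ifitm1 read 9.42, 9.19, 8.83 and 8.74 on scramble non-ischemic and 10.77, 10.52, 9.93 and 11.11 on scramble ischemic arrays. Its anti-miR-210 values were 9.08, 8.33, 9.13 and 8.86 without and 11.38, 11.45, 10.93 and 10.87 with ischemia. Both pairs of groups were fully separate. Ifitm1 rose 2.91-fold (1.54 ± 0.23, adjusted p = 1.78e-05) and 4.94-fold (2.31 ± 0.23, adjusted p = 1.51e-07). Its 4 dimmer probes had changes of the same sign, of 0.59 to 3.13 after scramble and 0.09 to 2.69 after anti-miR-210. The smallest after anti-miR-210, 0.09 ± 0.28 (adjusted p = 0.823) and 0.22 ± 0.17 (adjusted p = 0.294), were not called. The Ifitm genes are similar in sequence, and whether a probe also reads a paralog was not tested.

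Eif2ak2 encodes the double-stranded RNA-activated kinase PKR, which halts translation. It read 7.23, 7.09, 7.34 and 7.3 on scramble non-ischemic and 8.5, 8.76, 8.78 and 8.97 on scramble ischemic arrays. After anti-miR-210 Eif2ak2 read 7.31, 7.29, 7.55 and 7.75 without and 9.3, 9.11, 8.67 and 9.23 with ischemia. The groups did not overlap. It rose 2.85-fold (1.51 ± 0.15, adjusted p = 1.24e-07) and 3.04-fold (1.6 ± 0.15, adjusted p = 6.26e-08). The spread within each group was small beside the change.

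Samhd1 degrades deoxynucleotides and thereby restricts viral DNA synthesis in myeloid cells. Its levels were 6.71, 6.49, 6.3 and 6.26 on scramble non-ischemic and 8.02, 7.78, 8.83 and 8.76 on scramble ischemic arrays. In the anti-miR-210 groups they were 6.37, 6.21, 6.34 and 6.61 without and 7.97, 8.75, 7.33 and 8.86 with ischemia. All ischemic arrays were higher. Samhd1 rose 3.75-fold (1.91 ± 0.29, adjusted p = 1.72e-05) and 3.59-fold (1.85 ± 0.29, adjusted p = 2.55e-05), while its dimmer second probe, with a mean level of 5, moved by 0.27 ± 0.19 (adjusted p = 0.246) and 0.56 ± 0.19 (adjusted p = 0.0178).

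Rsad2, also called viperin, makes a chain-terminating nucleotide. It read 4.67, 5.84, 5.13 and 5.35 on scramble non-ischemic and 5.19, 7.9, 6.87 and 6.56 on scramble ischemic arrays. With anti-miR-210 Rsad2 read 6.41, 5.05, 5.59 and 5.94 without and 7.67, 7.26, 6.33 and 7.87 with ischemia. Scramble ischemic replicate 1 stayed within the non-ischemic range, and anti-miR-210 ischemic replicate 3 did so too. Rsad2 rose by 1.38 ± 0.44 after scramble (adjusted p = 0.0135) and by 1.53 ± 0.44 after anti-miR-210 (adjusted p = 0.0071). The first of these calls was lost without scramble ischemic replicate 2 (adjusted p = 0.0647) and with array brightness as a covariate (change 0.88, adjusted p = 0.314).

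Oasl2, a member of the oligoadenylate synthetase family, read 4.64, 5.35, 5.25 and 5.5 on scramble non-ischemic and 5.7, 7.54, 7.32 and 6.83 on scramble ischemic arrays. Its anti-miR-210 levels were 6.08, 5.14, 4.78 and 5.45 without and 7.77, 7.28, 5.72 and 7.67 with ischemia. The same ischemic arrays as for Rsad2, scramble replicate 1 and anti-miR-210 replicate 3, were the lowest of their groups. Oasl2 rose by 1.66 ± 0.43 (adjusted p = 0.00311, or a change of 1.2 and 0.149 with array brightness as a covariate) and by 1.75 ± 0.43 (adjusted p = 0.00217). A dimmer Oasl2 probe, with a mean level of 4.4, was not called (0.11 ± 0.12 and 0.25 ± 0.12).

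Bst2, or tetherin, holds budding virus at the cell surface. It read 5.2, 4.97, 4.17 and 4.27 on scramble non-ischemic and 4.89, 4.83, 5.17 and 4.23 on scramble ischemic arrays. After anti-miR-210 the ischemic arrays read 4.59, 5.71, 5.17 and 5.3, and Bst2 was not detected on the non-ischemic ones (4.34, 4.29, 4.19 and 4.21). The scramble groups overlapped throughout, and the anti-miR-210 groups did not. Bst2 was at least 1.53-fold higher with ischemia after anti-miR-210 (adjusted p = 0.00646, or 0.071 under median scaling without background correction), and its change after scramble was 0.13 ± 0.27.

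The other effectors were dim or variable. Mx2, a dynamin-like GTPase, stayed between 4.23 and 4.64 on the 8 non-ischemic oligonucleotide arrays and reached 5.36 and 5.17 at most on the ischemic ones. Mx2 was at least 1.27-fold higher after anti-miR-210 (adjusted p = 0.0131, or 0.803 under median scaling without background correction). Ifit3, a binder of foreign RNA, ranged from 5.36 to 7.33 on scramble ischemic arrays, and its highest reading of all (8.17) was on an anti-miR-210 non-ischemic array. Ifit2, from the same family, and Oas1a, another oligoadenylate synthetase, had changes between -0.15 and 0.4 that were not called, and Oas1a was detected on only 3 arrays. Dimmer second probes had the opposite sign for Ifit3 (-0.15 after scramble and -0.27 after anti-miR-210) and, after scramble, for Ifit2 (-0.2), and were not called. Detection on 3 arrays is the smallest number that let a gene be tested; Ifit1 was detected on 2 arrays, Isg20 and Mx1 on 1 each, and Ifih1, Iigp1 and Ifi44 on 0, and these 6 genes were not tested. The RNA sensor Ddx58 (RIG-I) lay between 4.23 and 5.23 on all 19 arrays and was not called.

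Zbp1, a sensor of Z-form nucleic acids that can trigger cell death, differed in sign between the oligonucleotides; it is described because of that difference, which was seen in the values. It read 4.97, 5.65, 5.42 and 5.92 on scramble non-ischemic and 6.04, 5.66, 6.22 and 5.73 on scramble ischemic arrays. With anti-miR-210 Zbp1 read 5.73, 5.96, 5.75 and 5.8 without and 5.18, 5.18, 5.34 and 5.8 with ischemia. The groups overlapped in both comparisons. Neither change was called (0.42 ± 0.19, adjusted p = 0.0725, and -0.43 ± 0.19, adjusted p = 0.0672). The difference between them was -0.86 (95% interval -1.42 to -0.29, unadjusted p = 0.00518, adjusted p = 0.447).

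**Figure D3:**
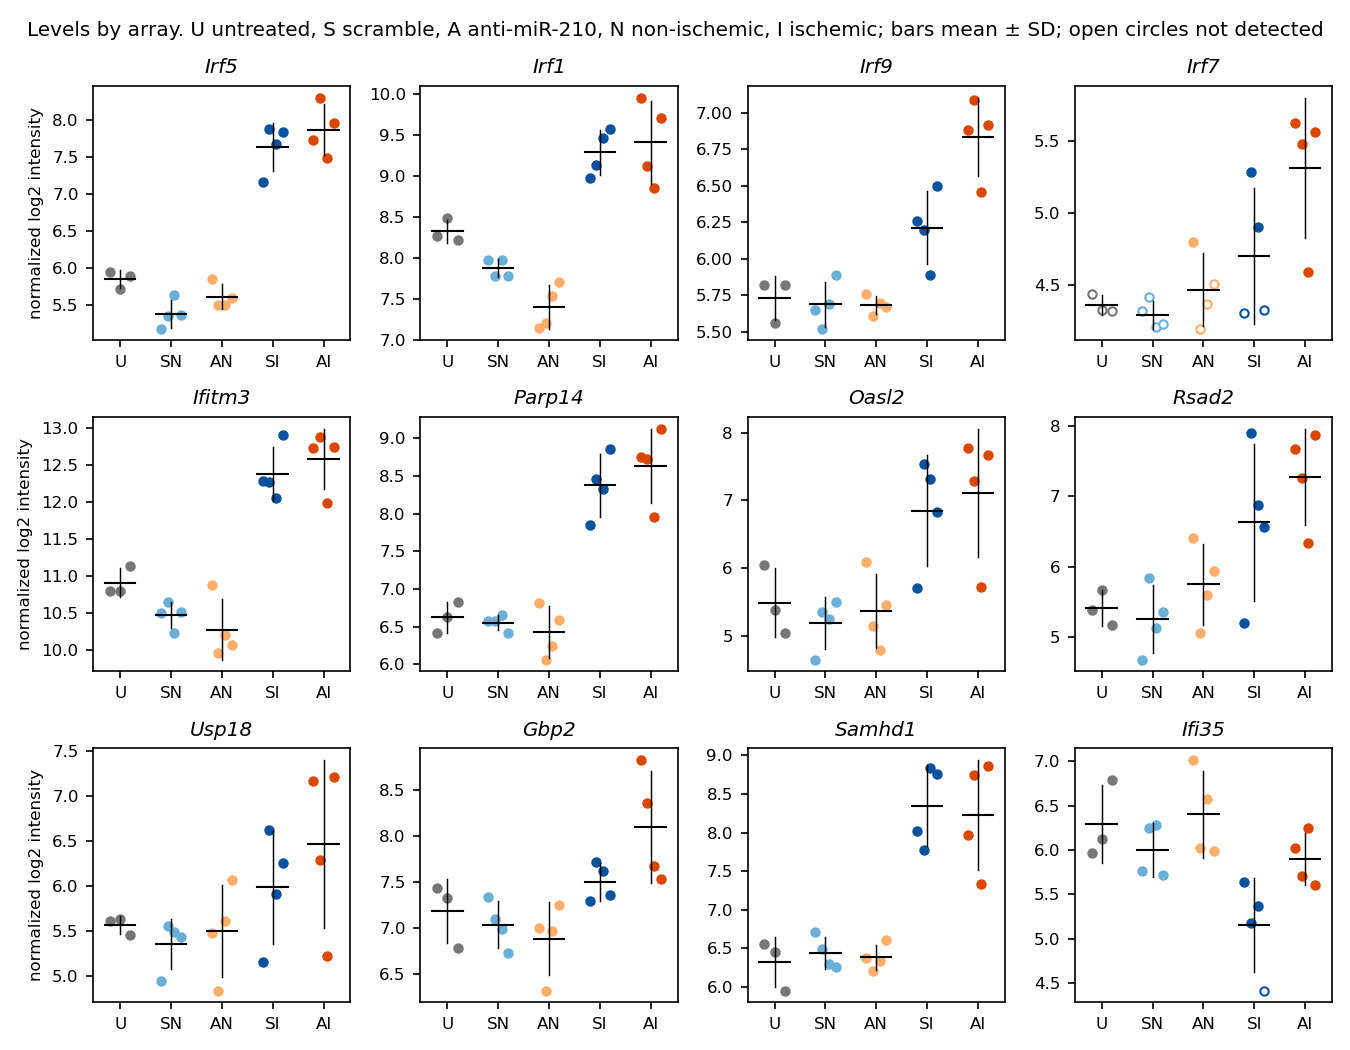
Normalized log2 level by array of 12 interferon-stimulated genes in untreated (U), scramble non-ischemic (SN), anti-miR-210 non-ischemic (AN), scramble ischemic (SI) and anti-miR-210 ischemic (AI) muscle. Each circle is an array (n = 3 untreated, 4 in the other groups), open where the probe was not detected, and bars give the mean ± SD; the y axes differ between panels and do not start at 0. Irf5, Irf1, Ifitm3, Parp14 and Samhd1 separate ischemic from non-ischemic arrays completely, Rsad2 and Usp18 do not, and Ifi35 runs lower on scramble ischemic arrays.

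Genes of ubiquitin-like modification, ubiquitin ligation and ADP-ribosylation rose in 2 of 4 cases after scramble and in 3 of 4 after anti-miR-210. Over all genes tested, 27% and 26.5% rose. Parp14, an ADP-ribosyltransferase of macrophage cytokine responses, read 6.57, 6.58, 6.65 and 6.41 on scramble non-ischemic and 7.85, 8.46, 8.33 and 8.85 on scramble ischemic arrays. With anti-miR-210 Parp14 read 6.82, 6.06, 6.24 and 6.59 without and 8.75, 8.72, 7.95 and 9.12 with ischemia. Groups were fully separate in both. Parp14 rose 3.53-fold (1.82 ± 0.23, adjusted p = 2.26e-06) and 4.62-fold (2.21 ± 0.23, adjusted p = 2.31e-07).

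Trim25, the ubiquitin ligase that acts on RIG-I, read 6.5, 6.74, 6.75 and 7.19 on scramble non-ischemic and 8.34, 8.61, 8.7 and 8.68 on scramble ischemic arrays. In the anti-miR-210 groups Trim25 read 6.4, 7.18, 7.21 and 6.92 without and 8.42, 9.14, 7.66 and 8.8 with ischemia. Anti-miR-210 ischemic replicate 3 was the lowest ischemic array, and still above the non-ischemic ones. The rise was 1.79 ± 0.26 (adjusted p = 1.11e-05) and 1.58 ± 0.26 (adjusted p = 4.66e-05). A second Trim25 probe near the floor of detection (mean level 4.37) moved by 0.1 ± 0.14 and 0.01 ± 0.14.

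Usp18 removes the ubiquitin-like modifier Isg15 from proteins and limits signalling from the type I receptor. It read 4.94, 5.55, 5.49 and 5.43 on scramble non-ischemic and 5.15, 6.62, 5.91 and 6.26 on scramble ischemic arrays. With anti-miR-210 Usp18 read 5.47, 4.83, 5.61 and 6.07 without and 7.17, 6.29, 5.22 and 7.21 with ischemia. Scramble ischemic replicate 1 and anti-miR-210 ischemic replicate 3 again lay among the non-ischemic arrays. Usp18 changed by 0.64 ± 0.37 after scramble (adjusted p = 0.17) and rose by 0.98 ± 0.37 after anti-miR-210 (adjusted p = 0.0355). The latter call was lost without anti-miR-210 ischemic replicate 1 (adjusted p = 0.126) or 4 (0.13), and without anti-miR-210 non-ischemic replicate 1 (0.0629), 2 (0.125) or 3 (0.0529). The antibody-binding ligase Trim21 changed by 0.21 and 0.5 and was not called. Isg15, Parp9 and Xaf1 had no probe of that name.

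Of the GTPases that interferon-gamma induces to attack intracellular pathogens, 1 of 3 rose after scramble and 2 of 3 after anti-miR-210. With 3 genes, these counts say little beside the 27% and 26.5% of all genes tested that rose. Gbp2 read 7.34, 7.1, 6.99 and 6.73 on scramble non-ischemic and 7.29, 7.72, 7.62 and 7.36 on scramble ischemic arrays. With anti-miR-210 Gbp2 read 7, 6.32, 6.97 and 7.25 without and 8.83, 8.36, 7.67 and 7.53 with ischemia. Only the anti-miR-210 groups stood apart. Gbp2 changed by 0.46 ± 0.26 (adjusted p = 0.148) after scramble and rose by 1.21 ± 0.26 (adjusted p = 0.000569) after anti-miR-210.

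Gbp3 read 5.09, 5.03, 5.12 and 5.26 on scramble non-ischemic and 5.15, 6.43, 6.4 and 5.96 on scramble ischemic arrays. Its anti-miR-210 levels were 5.92, 5.28, 4.5 and 5.33 without and 6.48, 6.32, 6.14 and 5.52 with ischemia. One ischemic array of each kind fell within the non-ischemic range. Gbp3 rose by 0.86 ± 0.29 in both (adjusted p = 0.0196 and 0.0199). Neither call withstood the loss of single libraries. The first was lost without scramble ischemic replicate 2 (adjusted p = 0.0696) or 3 (0.068), and the second without anti-miR-210 non-ischemic replicate 3 (0.0909) or ischemic replicate 1 (0.0635) or 2 (0.0533). The first was also lost with array brightness as a covariate (0.129) and under median scaling without background correction (0.0738). A dimmer second Gbp3 probe, with a mean level of 5.33, rose by 0.63 ± 0.21 after scramble (adjusted p = 0.0161) and by 1.12 ± 0.21 after anti-miR-210 (adjusted p = 0.000179). Igtp, from the same class, changed by 0.16 and 0.47 and was not called. A probe named Irgm, an older name of Irgm1 and outside the matching rule, rose by 0.71 ± 0.2 after scramble (adjusted p = 0.00511) and changed by 0.2 ± 0.2 after anti-miR-210 (adjusted p = 0.434).

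Ifi27, a small mitochondrial protein that interferon induces in many tissues, read 9.42, 8.04, 6.49 and 9.01 on scramble non-ischemic and 9.16, 10.58, 10.93 and 10.05 on scramble ischemic arrays. With anti-miR-210 Ifi27 read 7.19, 8.37, 8.39 and 8.08 without and 9.89, 10.59, 9.11 and 10.25 with ischemia. Scramble non-ischemic replicate 3 was far below the others of its group, and replicate 1 of that group lay within the ischemic range. Ifi27 rose by 1.94 ± 0.5 (adjusted p = 0.00315, or 0.0907 under median scaling without background correction) and by 1.95 ± 0.5 (adjusted p = 0.00309). A probe under the older Ifi27 name D12Ertd647e, outside the matching rule, rose by 1.56 ± 0.17 and 1.19 ± 0.17.

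Ifi35, a protein that dampens RIG-I signalling in human cells, ran the other way. It read 5.76, 6.25, 6.28 and 5.72 on scramble non-ischemic and 5.64, 5.18, 5.37 and 4.41 on scramble ischemic arrays, where replicate 4 was not detected. In the anti-miR-210 groups Ifi35 read 7.02, 6.02, 6.58 and 5.99 without and 6.02, 5.71, 6.25 and 5.61 with ischemia. Only the scramble groups stood apart. Ifi35 fell by 0.85 on the log2 scale after scramble (SE 0.27, adjusted p = 0.0134) and changed by -0.5 ± 0.27 after anti-miR-210 (adjusted p = 0.137). The call was lost without scramble ischemic replicate 4 (adjusted p = 0.0647), with array brightness as a covariate (0.0567, with a larger fall of -1.01) and under cyclic loess scaling (0.0515).

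Within a group, the same array tended to be low for many of these genes, which was seen in the values. Scramble ischemic replicate 1 was the lowest of its 4 arrays for 15 of the 29 genes, against 23.1% of all genes tested. Anti-miR-210 ischemic replicate 3 was the lowest of its 4 for 18 of the 29, against 28% of all genes tested. Mean macrophage marker levels were 7.45, 8.2, 7.47 and 7.41 on scramble ischemic replicates 1 to 4. They were 8.23, 8.77, 8.45 and 7.72 on anti-miR-210 ischemic replicates 1 to 4. The part of macrophage content in the low arrays was not tested.

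Promoter sequence around the response elements is shown for genes that rose and for genes that were not called. The search covered the 250 bases before each RefSeq gene start (GRCm38.p6) on both strands for the core of the interferon-stimulated response element, GAAANNGAAA, and the core of the gamma-activated site, TTCNNNGAA. The first was present in 2.98% of 32851 promoters, or for 3.46% of 27025 genes with any of their starts counted, and the second in 7.02% of promoters, or for 8.13% of genes. Of the 29 tested genes, 24 matched a promoter by symbol; 9 (37.5%) held the first core and 8 (33.3%) the second. Capitals mark the core, and each stretch is read 5′ to 3′ on the strand that carries it. The genes below down to Bst2 are printed for the interferon-stimulated core, and those after it for the gamma-activated core. Oas1a also carries 2 interferon-stimulated cores, nearer its gene start and outside its printed stretch. In lower case the stretch of Igtp also holds a gamma-activated core, and that of Irf8 holds a further one. In Bst2 the printed core overlaps a further copy, which shares bases with a gamma-activated core.
Rsad2, chr12:26456539-26456596, plus strand: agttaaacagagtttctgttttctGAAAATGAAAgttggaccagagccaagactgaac
Gbp2, chr3:142620580-142620637, minus strand: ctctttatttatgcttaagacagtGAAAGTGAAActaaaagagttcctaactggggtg
Stat2, chr10:128270252-128270309, minus strand: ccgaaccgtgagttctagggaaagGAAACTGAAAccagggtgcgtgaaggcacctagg
Ifit3, chr19:34583349-34583406, minus strand: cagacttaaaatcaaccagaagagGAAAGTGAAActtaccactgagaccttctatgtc
Igtp, chr11:58199498-58199555, plus strand: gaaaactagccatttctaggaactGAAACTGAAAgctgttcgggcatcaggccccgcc
Bst2, chr8:71537563-71537620, minus strand: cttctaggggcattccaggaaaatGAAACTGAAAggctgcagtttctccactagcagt
Irf1, chr11:53769900-53769956, plus strand: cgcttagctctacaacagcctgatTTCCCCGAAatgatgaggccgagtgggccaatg
Irf8, chr8:120736163-120736219, plus strand: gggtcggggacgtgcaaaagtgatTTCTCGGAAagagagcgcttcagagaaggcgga
Eif2ak2, chr17:78882718-78882774, minus strand: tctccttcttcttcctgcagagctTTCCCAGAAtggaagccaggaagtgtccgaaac
Samhd1, chr2:157135299-157135346, minus strand: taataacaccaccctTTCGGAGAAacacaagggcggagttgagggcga
Ifit2, chr19:34550444-34550485, plus strand: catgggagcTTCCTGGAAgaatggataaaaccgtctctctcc
Oas1a, chr5:120907591-120907647, minus strand: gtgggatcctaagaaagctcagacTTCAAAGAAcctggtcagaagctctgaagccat

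Genes with the interferon-stimulated core in this window had smaller median changes than those without it. After scramble 3 of the 9 genes with the core rose, with a median change of 0.46, while 10 of the 15 matched genes without it rose and 1 fell, with a median of 1.41. After anti-miR-210 the counts were 6 of 9 (median 0.86) and 11 of 15 (median 1.58). Of all genes tested, 27% rose after scramble and 26.5% after anti-miR-210, so 3 of 9 lay near that share. Dim genes stood on both sides. Oas1a, Bst2 and Stat2 with the core had mean levels of 4.28, 4.84 and 4.88. Irf7, Ddx58 and Ifit2 without it had 4.64, 4.58 and 4.84. The part of brightness was not tested. These counts describe 24 genes with no test. Rsad2, Gbp2, Stat2 and Bst2 above carry the interferon-stimulated core and were called after anti-miR-210. Ifit3, Igtp and Oas1a carry it and were not called. Of the 8 genes with a gamma-activated core, Irf1, Irf8, Eif2ak2 and Samhd1 rose after both oligonucleotides, Bst2 was called only after anti-miR-210, and Ifit2, Igtp and Oas1a were called after neither. Their median changes were 0.73 after scramble and 1.18 after anti-miR-210, beside 0.69 and 1.18 for the 16 matched genes without that core.

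The signals and receptors upstream were measured on the same arrays. Of 15 interferon ligand genes, 14 had a probe and 5 were tested, and 0 were called after scramble (0 at an unadjusted p under 0.05). Ifna1, a type I interferon with near-identical paralogs, was called slightly lower after anti-miR-210 (-0.31 ± 0.12, adjusted p = 0.0442). Its means there were 4.78 without and 4.47 with ischemia, detected on 4 and 2 arrays. This change lies near the floor of detection and its size is uncertain. Ifna4, Ifnk and Ifnz were detected on only 3 of the 19 arrays each. Ifnb1 was detected on 0 arrays and Ifng, the gene of interferon-gamma, on 1. Of 5 receptor genes tested, 3 rose after either oligonucleotide, beside 27% and 26.5% of all genes tested. Ifnar2, the signalling chain of the type I receptor, rose by 1.46 ± 0.22 (adjusted p = 1.31e-05) after scramble and was at least 2.26-fold higher after anti-miR-210. Il10rb, shared by interferon-lambda and interleukin-10, rose by 1.4 ± 0.24 and 1.84 ± 0.24. The chains of the interferon-gamma receptor were called in different comparisons. Ifngr2 rose by 2.37 ± 0.37 after scramble and changed by 0.73 ± 0.37 after anti-miR-210 (adjusted p = 0.109). Ifngr1 changed by 0.26 ± 0.19 after scramble (adjusted p = 0.266) and rose by 1.05 ± 0.19 after anti-miR-210. The difference between both responses was called for 0 of the 5 receptor genes.

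Of 5 kinases and Stat factors, 3 rose and 2 fell after scramble, and 2 rose and 2 fell after anti-miR-210. Of all genes tested, 27% rose and 24.6% fell after scramble, and 26.5% rose and 24.4% fell after anti-miR-210. Stat3, the main factor downstream of interleukin-6, rose by 1.58 ± 0.2 and 1.28 ± 0.2, and the kinase Tyk2 rose by 0.96 ± 0.17 and 1.17 ± 0.17. The kinases Jak1 (-1.09 ± 0.29 in both) and Jak2 (-0.98 ± 0.2 and -0.84 ± 0.2) fell. Stat4, which acts downstream of interleukin-12, was called higher after scramble (0.46 ± 0.18, adjusted p = 0.044). It was detected on 0 scramble non-ischemic arrays and 2 scramble ischemic ones, so this change lies near the floor of detection and its size is uncertain. After anti-miR-210 Stat4 changed by 0.08 ± 0.18 (adjusted p = 0.773). Among 14 nucleic acid sensors and adaptors, 9 rose and 1 fell after scramble, and 10 rose and 1 fell after anti-miR-210. The Toll-like receptor adaptor Myd88 rose by 2.97 ± 0.15 and 2.94 ± 0.15, the DNA sensor Cgas by 2.83 ± 0.22 and 2.93 ± 0.22, and the RIG-I adaptor Mavs fell (-1.46 ± 0.17 and -1.24 ± 0.17).

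Of 12 genes that restrain interferon signalling, 5 rose and 1 fell after scramble, and 6 rose and 1 fell after anti-miR-210, a share called that is close to the 51.6% and 50.9% of all genes. The phosphatase Ptpn6, abundant in blood cells, rose by 4.1 ± 0.23 and 4.42 ± 0.23, the cytokine signalling inhibitor Socs3 by 3.6 ± 0.37 and 3.25 ± 0.37, and the RNA editing enzyme Adar by 1.46 ± 0.19 and, as a bound, at least 2.1-fold. Of 56 further interferon-stimulated genes, 29 were tested. After scramble 15 of these rose and 0 fell, where 27% of all genes tested rose. After anti-miR-210 20 rose and 0 fell, where 26.5% of all genes tested rose. The median changes of this list were 0.47 and 0.78. The smallest adjusted p-values in that list after scramble were those of the surface protein Ly6e (1.65 ± 0.22), the MHC regulator Nlrc5 (at least 2.69-fold) and the nuclear body protein Pml (1.2 ± 0.18). Of 16 antigen processing genes, 11 and 12 rose and 0 fell, beside the same 27% and 26.5% of all genes tested. Those that rose included the immunoproteasome subunits Psmb9 (1.37 ± 0.21 and 1.65 ± 0.21) and Psmb8 (1.45 ± 0.29 and 2.25 ± 0.29) and the peptide transporter subunit Tap2 (1.05 ± 0.2 after scramble).

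**Figure D4:**
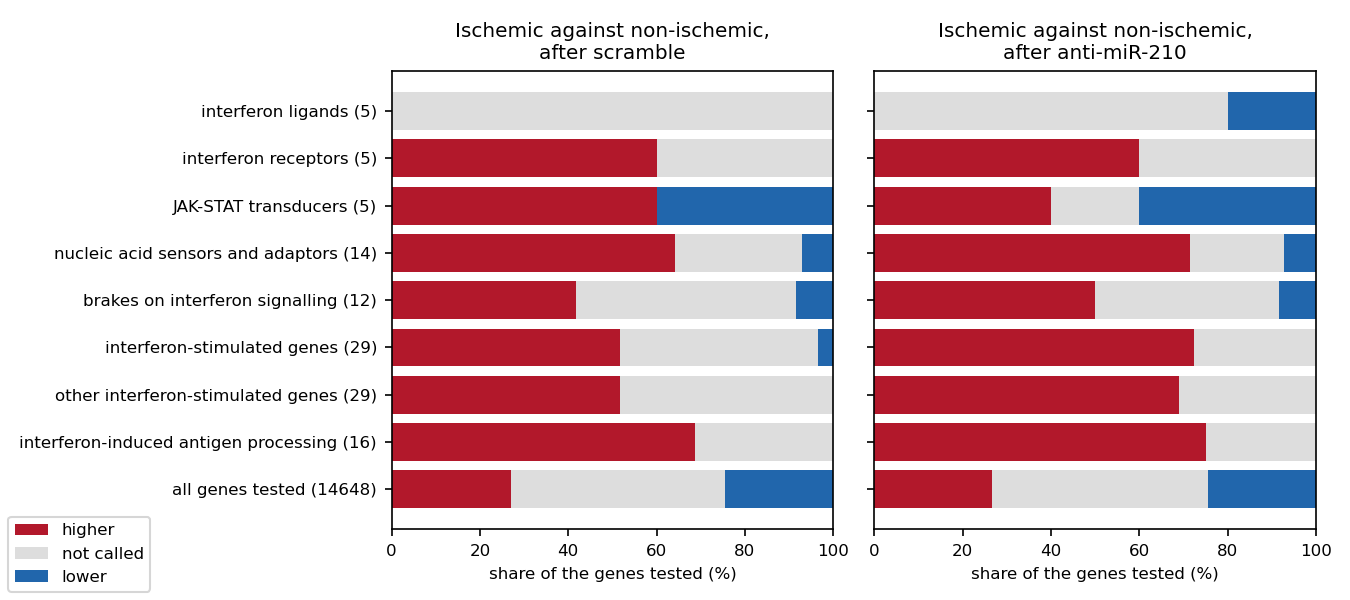
Share of the tested genes of each interferon pathway list called higher (red), not called (grey) or called lower (blue) in ischemic against non-ischemic muscle, after scramble (left) and after anti-miR-210 (right), n = 4 arrays per group; the number tested stands after each name and the bottom bar gives all 14648 genes. Of the 5 ligand genes tested, 0 were called higher in either panel, while each of the other lists held between 2 of 5 and 12 of 16 genes called higher. The ligands Ifna4, Ifnk and Ifnz were detected on only 3 of the 19 arrays each.

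Anti-miR-210 was compared with scramble in ischemic muscle to ask whether inhibition of miR-210 altered these genes. Of the 29 genes, Irf9 was called, where 1.09% of all genes tested were called (0.239% higher), and 7 had an unadjusted p under 0.05, as did 2333 of all 14648 genes. Under median scaling without background correction 13 of the 29 were called (12 higher), beside 5970 of all genes. Irf9 was 1.54-fold higher with anti-miR-210 (0.63 ± 0.15, adjusted p = 0.0471); the array values given above overlapped between scramble replicate 4 (6.5) and anti-miR-210 replicate 3 (6.46). That call remained under 7 of 31 other settings and was lost, for instance, with array brightness as a covariate, where the difference was 0.68 (adjusted p = 0.496). The dimmer second Irf9 probe differed by 0.42 ± 0.15 and was not called (adjusted p = 0.178). The change was positive for 24 of the 29 genes, with a median of 0.28 beside 0.01 over all genes tested. Scramble ischemic arrays were also the dimmer ones, as given above, and with brightness as a covariate the median of the 29 was 0.4 and 0 of them were called.

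The genes not called in this comparison were bounded to different degrees. The 95% interval of the difference lay within 1 log2 unit of 0 for 19 of the 29 genes. It was narrow for Irf8 (-0.36 to 0.45), Mx2 (-0.34 to 0.44) and Ddx58 (-0.33 to 0.37), and wide for Rsad2 (-0.28 to 1.58), Ifit3 (-0.45 to 1.47) and Ifi27 (-1.28 to 0.84). The differences of Ifi35 (0.75, interval 0.18 to 1.32), Irf7 (0.61, 0.13 to 1.08), Gbp2 (0.6, 0.06 to 1.14), Ifitm1 (0.57, 0.08 to 1.06), Eif2ak2 (0.33, 0.01 to 0.64) and Zbp1 (-0.54, -0.94 to -0.14) excluded 0 without adjustment and had adjusted p-values of 0.164 to 0.296. For Ifitm1 this holds for the brightest probe alone: its 4 other probes were lower with anti-miR-210, by -0.28 to -1.3, and the last of these was called (adjusted p = 0.0398). Outside the 29 genes, Ifngr2 was lower (-1.81 ± 0.37, adjusted p = 0.0337) and Ifngr1 higher (0.78 ± 0.19, adjusted p = 0.0473) with anti-miR-210. Neither passed an adjusted p under 0.01. With array brightness as a covariate, 0% of the genes called in this comparison were higher, so the call of Ifngr1 was lost.

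**Figure D5:**
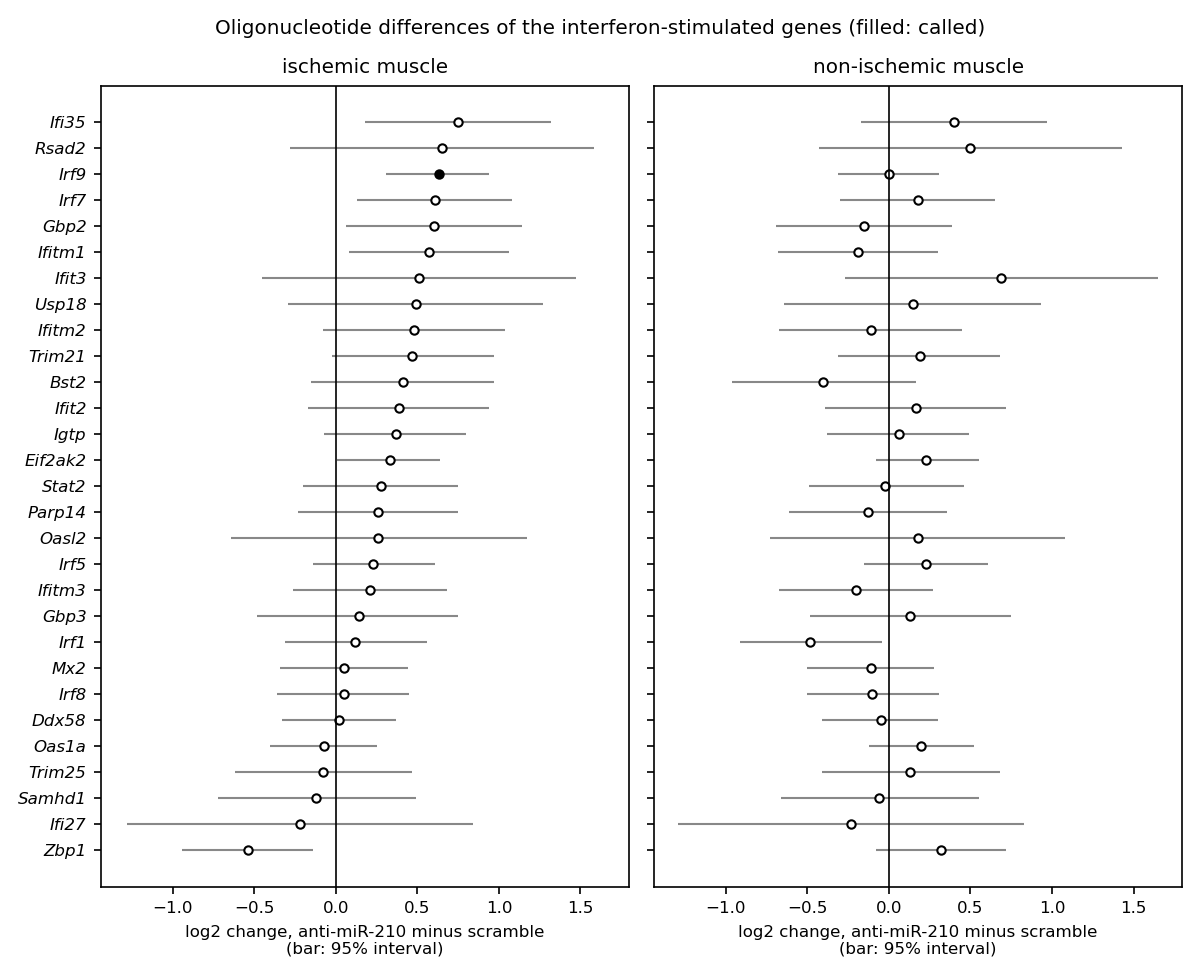
Difference between anti-miR-210 and scramble for each tested interferon-stimulated gene (x axis, log2 units, bars 95% intervals from the limma fit) in ischemic (left) and non-ischemic (right) muscle, n = 4 arrays per group; a filled point was called. The only filled point is Irf9 in ischemic muscle (0.63), and 24 of 29 points lie above 0 on the left.

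In non-ischemic muscle, 0 of the 29 genes differed between the oligonucleotides by limma (1, Irf1, at an unadjusted p under 0.05), where 0.0205% of all genes tested were called. Irf1 was lower with anti-miR-210 by 0.48 on average (interval -0.91 to -0.04, adjusted p = 0.758), although 1 of its 3 other probes had the opposite sign (0.03). The interval lay within 1 log2 unit of 0 for 25 of the 29 genes. The test of the difference between both ischemia responses also called 0 of the 29 by limma (4 at an unadjusted p under 0.05, as for 1202 of all 14648 genes: Bst2, Ifitm1, Irf9 and Zbp1), where 0.0205% of all genes tested were called. That difference was 0.63 for Irf9 (interval 0.19 to 1.07), 0.77 for Ifitm1 (0.07 to 1.46) and 0.81 for Bst2 (0.02 to 1.6), in each case a larger change after anti-miR-210. The 4 other probes of Ifitm1 gave the opposite sign (-0.29 to -1.44). Under median scaling without background correction, Irf1, Irf9, Ifitm1, Ifitm3 and Parp14 were called for this difference.

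Against untreated muscle, few of these genes differed in non-ischemic muscle of injected mice. After scramble, Ifitm1 alone of the 29 was called, where 2.87% of all genes tested were called, so the share was near that of all genes. Ifitm1 read 10.25, 10.14 and 10.32 in untreated muscle, above all 8 non-ischemic oligonucleotide arrays, and was lower by 1.19 with scramble (SE 0.25, adjusted p = 0.0133). After anti-miR-210, 3 of 29 were called, all lower, where 5.68% of all genes tested were called. These were Ifitm1 (-1.39 ± 0.25, adjusted p = 0.00312), Irf1 (-0.93 ± 0.22, adjusted p = 0.0188), which read 8.27, 8.49 and 8.22 in untreated muscle, and Bst2 (adjusted p = 0.015), which read 5.3, 5.17 and 6.06 in untreated muscle and was at least 1.9-fold higher there. Both comparisons share the untreated arrays. A further fit left out untreated replicates 2 and 3 and scramble non-ischemic replicate 1, which carried hepatocyte transcripts. Untreated replicate 1, which carried them too, was kept. That fit has 1 untreated array, which is assumed to vary like the other groups, and the changes there were -1.33 and -1.4 for Ifitm1, -0.87 for Irf1 and -1.04 for Bst2, with Irf1 and Bst2 taken after anti-miR-210. Ifitm1 was not called when its 5 probes were averaged (adjusted p = 0.751 and 0.492).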

How the data were processed

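The deposited table gives, per the file headers, for each of 45281 probes on 19 arrays, the mean intensity over beads with its detection p-value; the intensities were not normalized, and no source used here names the export software. A second deposited table of intensities, found from its values to be quantile-normalized by the authors, served as an alternative. There were 0 per-sample columns left unused and 0 identical array pairs (highest correlation 0.987). Background correction, an offset of 16, quantile normalization and log2 were applied with neqc in limma 3.58.1 (R 4.3.3), without control probes, from the detection p-values. The 21083 probes detected (p under 0.05) on 3 or more arrays were kept, and the brightest was used for each of 14648 genes. Names were matched to RefSeq symbols (GRCm38.p6): 27400 probes had a current symbol, 8300 an older one, and 9581 kept the name in the file. A limma model with 5 group means over all arrays, empirical Bayes moderation and Benjamini-Hochberg adjustment over all genes gave 7 comparisons.

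The interferon-stimulated genes and the pathway and marker lists were chosen with earlier results of these data known. Those described array by array were called in at least 1 comparison and among the 12 with the largest change in any, except Zbp1, chosen after its values were seen; genes of other pathway lists were chosen by smallest adjusted p, or as ligands and receptors, or seen in the values (Ifngr1, Ifngr2, Jak1, Jak2, Stat4, Mavs, Cgas). One gene of the pathway lists is not reported here. A gene undetected in a whole group has a bound, from the floor of detection (4.4 to 4.65 over arrays). On simulated data for ischemia after scramble (14648 genes, 100 changed by each size, independent noise), 75% of log2 changes of 1 and 94% of changes of 2 were recovered. There were 6 false calls among 175. Far more genes were called in the real comparison, so these rates may not carry over to it. No slide or batch is labelled, so no batch was modelled. Alternatives covered scaling, background, offset, filter, probe choice, brightness, replicate number, threshold and left-out arrays. Figures used matplotlib 3.10.9 under Python 3.11.15.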

Additional observations from a re-analysis of the deposited data

Results flagged for a closer look

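In 120 sets of 4 arrays (each tested gene, and the mean over the 29 genes, in each oligonucleotide group), 7 had a highest or lowest array whose gap to its neighbour was large beside the whole range, where chance gives about 5%. Anti-miR-210 ischemic replicate 3 was low for Irf7 (4.59, against 5.48 to 5.62 on the other 3), for Ifitm3 (11.98, against 12.73 to 12.88) and for the mean over the 29 interferon-stimulated genes (6.83, against 7.3 to 7.37). Anti-miR-210 non-ischemic arrays stood apart for Ifitm2 (replicate 2 at 8.43, against 9.22 to 9.36), Trim21 (replicate 3 at 4.49, against 5.22 to 5.36) and Oas1a (replicate 1 at 4.79, against 4.25 to 4.33). Scramble ischemic replicate 1 was high for Oas1a (4.8, against 4.15 to 4.21).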

How the results depend on the processing

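Of 42 results in which an interferon-stimulated gene was called, 24 kept direction and call under all of 32 alternatives, and 0 reversed. Leaving out each array in turn gave 15 to 17 called genes of 29 in ischemia after scramble and 19 to 22 after anti-miR-210. Ischemia after scramble called 4822 of all genes with array brightness as a covariate. Median scaling without background correction, which changes both choices together and moved the median of all genes by -0.15 in ischemia after anti-miR-210 (0.57 for the 29 genes there), lowered the share of higher calls among all genes to 38.6% after scramble and 37.3% after anti-miR-210, from 52.3% and 52.1%. The cause was not tested.

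For anti-miR-210 against scramble in ischemic muscle, the count over all genes (159) was 5970 under median scaling without background correction (2870 higher), 91 under cyclic loess (38.5% higher, against 22%), 60 without a detection filter, 1 with the brightness covariate, 10 at an adjusted p under 0.01, 26 without the hepatocyte-rich arrays (untreated replicates 2 and 3 and scramble non-ischemic replicate 1, an alternative chosen after seeing the data, as was the block within each oligonucleotide) and 14 to 1182 when single arrays were left out, the extremes without anti-miR-210 ischemic replicates 2 and 4. Of the 29 genes, 13 were called under median scaling without background correction (12 higher), 0 to 2 when single arrays were left out, and 0 without the filter, with detection on 4 arrays, with probes averaged, with the brightness covariate, with the replicate block, at 0.01 and without the hepatocyte-rich arrays. In non-ischemic muscle the count over all genes (3) was 0 under median scaling without background correction, 8 without the filter, 5 with probes averaged, 1 under cyclic loess, quantile scaling alone, the authors' values, the brightness covariate, the replicate block, the 0.01 threshold and without the hepatocyte-rich arrays, and 1 to 2 with single arrays left out. The difference of responses (3 over all genes) gave 621 under median scaling without background correction, with 5 of the 29 genes (Irf1, Irf9, Ifitm1, Ifitm3 and Parp14), 1 at 0.01, 0 with the brightness covariate, with either replicate block and without the hepatocyte-rich arrays, and 1 to 63 with single arrays left out, the highest without anti-miR-210 ischemic replicate 4.

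Scramble non-ischemic against untreated (420) gave 191 under median scaling without background correction, 276 under quantile scaling alone, 235 without the filter, 141 at 0.01, 109 without the hepatocyte-rich arrays and 199 (without untreated replicate 3) to 602 (without replicate 1). Its single call among the 29 became 0 with probes averaged, at 0.01, without the hepatocyte-rich arrays and without untreated replicate 3. Anti-miR-210 non-ischemic against untreated (832) gave 417 under median scaling without background correction, 253 at 0.01, 131 without the hepatocyte-rich arrays and 363 to 967 with single arrays left out; its 3 calls became 1 at 0.01, 0 without those arrays and 1 to 3 with single arrays left out. Zbp1 was called higher after scramble without scramble non-ischemic replicate 4 (0.57, adjusted p = 0.0211) and lower after anti-miR-210 without anti-miR-210 ischemic replicate 4 (-0.57, adjusted p = 0.0193).

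Replicate numbers are shared by the groups, but the labels do not say that they pair samples. Same-numbered deviations correlated at 0.05 to 0.17 in ischemia after scramble and 0.09 to 0.24 after anti-miR-210, each array best with its own number, which is a hint from the data and not from the design. With the replicate block, 16 and 21 of the 29 genes were called in these comparisons, and Irf9 between oligonucleotides had an adjusted p of 0.0531.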
